A study of Mus musculus with 6 samples.

Results

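The transcripts described here belong to 10 genes by which neutrophils are commonly recognised in mouse tissue: S100a8, S100a9, Retnlg, Mmp9, Mmp8, Ly6g, Csf3r, Il1r2, Ngp and Camp. They were taken by name. Of the 10, 9 have a row among the 24346 genes of the expression table, and Ly6g was not analysed here. RNA from whole liver was sequenced in 6 male C57/BL6 mice aged 8 weeks, 24 hours after intraperitoneal CCl4 at 0.6 μl per g body weight in sunflower oil. CCl4 is a toxin that hepatocytes turn into a reactive radical, and the comparison asks what the loss of the Mediator subunit MED23 from hepatocytes changes in the acutely injured liver. The 3 control mice carried a floxed Med23 gene (med23 f/f; the sample labels call them wt). The other 3 mice carried the same floxed gene together with Albumin-cre (med23 Δli). Albumin-cre acts in hepatocytes, so the neutrophils of a med23 Δli liver should keep their Med23, which was not tested here. Both groups received CCl4, no untreated liver was analysed here, and each library came from 1 mouse.

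Neutrophils leave the bone marrow as mature cells, pack their granules during maturation, and enter injured liver within hours in answer to chemokines, complement fragments and lipid mediators. The proteins of azurophil and specific granules are made early in the marrow, and their mRNAs have largely gone by the time the cell circulates, whereas the mRNAs of S100a8, S100a9, Retnlg, Csf3r and Il1r2 persist in blood and tissue neutrophils. Several of these genes are not restricted to neutrophils, since monocytes also make S100a8 and S100a9, and macrophages can make Mmp9. In RNA from a whole organ, fewer cells of a type and less RNA per cell cannot be told apart.

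The most abundant members are S100a8 and S100a9, 2 neighbours on chromosome 3 (mm10) whose proteins join into calprotectin. S100a8 (ENSMUSG00000056054.9) spans chr3:90668978-90670035 on the plus strand and S100a9 (ENSMUSG00000056071.12) spans chr3:90692632-90695721 on the minus strand, with 22596 bases between them. Their promoters are shown because both genes ranked the mice of each group in the same order, and those of Retnlg and Il1r2 because they ranked them in that order too, as did Mmp9. Each is the RefSeq sequence (GRCm38.p6) from 250 bases before to 30 bases after the annotated start, read 5′ to 3′ on the strand of the gene (S100a8, chr3:90668821-90669100; S100a9, chr3:90695692-90695971; Retnlg, chr16:48872358-48872637; Il1r2, chr1:40085843-40086122). Capitals mark matches to the PU.1 motif AGGAAGT or the C/EBP motif TTGCNNAA, both sought on either strand, and to the TATA box TATAAA, sought on the strand of the gene.
S100a8: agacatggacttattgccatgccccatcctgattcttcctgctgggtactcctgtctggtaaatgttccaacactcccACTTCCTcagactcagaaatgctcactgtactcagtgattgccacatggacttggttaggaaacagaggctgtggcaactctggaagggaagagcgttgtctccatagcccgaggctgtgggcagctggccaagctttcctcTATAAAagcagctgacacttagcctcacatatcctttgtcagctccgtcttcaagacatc
S100a9: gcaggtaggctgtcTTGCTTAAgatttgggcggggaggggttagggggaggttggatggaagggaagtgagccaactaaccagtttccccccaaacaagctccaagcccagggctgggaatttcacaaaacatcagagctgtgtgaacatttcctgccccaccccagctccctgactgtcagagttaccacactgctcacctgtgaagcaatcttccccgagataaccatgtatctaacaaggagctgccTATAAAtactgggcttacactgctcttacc
Retnlg: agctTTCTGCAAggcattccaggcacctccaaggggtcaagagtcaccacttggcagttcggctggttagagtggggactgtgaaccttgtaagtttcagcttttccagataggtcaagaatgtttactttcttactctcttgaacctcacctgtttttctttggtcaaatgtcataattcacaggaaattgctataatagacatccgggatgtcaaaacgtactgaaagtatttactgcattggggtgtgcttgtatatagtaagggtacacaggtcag
Il1r2: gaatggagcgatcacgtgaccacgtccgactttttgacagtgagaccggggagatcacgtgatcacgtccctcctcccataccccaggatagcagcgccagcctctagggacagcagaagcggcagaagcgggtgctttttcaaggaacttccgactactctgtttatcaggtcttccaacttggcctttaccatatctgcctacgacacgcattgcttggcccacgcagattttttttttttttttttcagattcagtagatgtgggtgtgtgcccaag
S100a8 held a PU.1 match on the opposite strand, whose leftmost base lies at position −172, and a TATA box at −30. S100a9 held a C/EBP match at −236 and a TATA box at the annotated start, and Retnlg held a C/EBP match on the opposite strand at −246. Il1r2, whose window starts downstream of the first base of the gene in the GENCODE annotation, held none of the 3 motifs. In windows reaching 50 bases past the start, a PU.1 match was present in 9.35%, a C/EBP match in 10.8% and a TATA box in 8.32% of 32851 mouse promoters. A match in these letters is a description of the sequence and was not tested as a binding site. Windows were found for 9 of the 10 members, 10 windows in all with both of Ly6g, and Mmp9 had none. Of these 10 windows, 4 held a PU.1 match, 5 a C/EBP match and 4 a TATA box, and those of Il1r2, Csf3r and Camp held none of them.

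Levels are in FPKM, fragments scaled to transcript length and library size, so that genes can be compared per length. Tests used limma on log2(FPKM + 0.1), with Benjamini-Hochberg adjustment over the 11956 genes that averaged 0.5 FPKM or more, and a gene was called when the adjusted p was under 0.05 and the change larger than 2-fold. On this scale a fold change understates the change of a gene with low values. No read counts accompany the FPKM, so the depth of each library is unknown. Each SD is the spread among 3 mice. SEs and confidence intervals are those of limma, which pools the spread of both groups and moderates it over all tested genes. A library had 7628 to 9341 genes at 0. The deleted gene itself did not separate the groups, since Med23 stood at 3.42, 2.97 and 4.14 FPKM in controls against 3.40, 3.40 and 2.91 FPKM in med23 Δli livers (log2 fold change −0.11, adjusted p = 0.685 in limma). The genotype therefore rests on the labels. Replicate 2 of the med23 Δli livers stood apart by adipocyte transcripts, with 5.65 FPKM of Adipoq, 2.29 FPKM of Ucp1 and 2.76 FPKM of Plin1, which were at 0 or below 0.1 FPKM in the other 5 libraries. Of the other genes in the 5-gene adipocyte list, Fabp4 was highest in the same liver (177 FPKM, against 23.2 to 66.3 FPKM elsewhere). Cidec, a lipid droplet gene, was highest there only among the med23 Δli livers, at 9.46 FPKM against 4.99 FPKM in replicate 1 and 1.63 FPKM in replicate 3. The controls had 19.2 to 77.6 FPKM of Cidec, and it was called down (log2 fold change −3.24, adjusted p = 0.0161 in limma).

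S100a8, a calcium-binding alarmin, had 23.9, 51.1 and 65.7 FPKM in the controls and 21.9, 54.2 and 38.4 FPKM in the med23 Δli livers. The groups overlapped, and the highest med23 Δli liver lay above the middle control. Means were 46.9 ± 21.2 and 38.2 ± 16.1 FPKM (SD, n = 3 each), and limma gave a log2 fold change of −0.27 (95% confidence interval −1.25 to 0.71, adjusted p = 0.674). Its partner S100a9 had 12.8, 28.6 and 51.7 FPKM in the controls against 14.3, 39.2 and 24.3 FPKM in the med23 Δli livers. These groups overlapped as well, with a log2 fold change of −0.16 (95% confidence interval −1.36 to 1.04, adjusted p = 0.846 in limma). Neither gene differed beyond the spread between mice, although intervals of this width leave room for changes above 2-fold. S100a8 exceeded S100a9 in 6 of 6 livers, by 1.86, 1.79 and 1.27 times in the controls and by 1.54, 1.38 and 1.58 times in the med23 Δli livers.

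Retnlg (ENSMUSG00000022651.6, chr16:48872621-48874496, plus strand) encodes resistin-like gamma, a secreted protein of granulocytes. It had 2.54, 6.20 and 14.7 FPKM in the controls and 1.58, 3.35 and 2.55 FPKM in the med23 Δli livers. The lowest control was within the range of the med23 Δli livers, whereas the other two controls were above all of them. The means were 7.82 ± 6.25 and 2.50 ± 0.888 FPKM (SD, n = 3 each). The fitted log2 fold change of −1.33 (SE 0.57) did not pass the test (adjusted p = 0.128 in limma), and the exact two-sided permutation test gave p = 0.3 where 3 livers against 3 cannot go below 0.1. This result depended on single controls. Without control replicate 1, the control with the least of every tested member, the log2 fold change was −1.96 and the adjusted p 0.0327 in limma. Without control replicate 3, the control with 14.7 FPKM, the log2 fold change was −0.71 and the adjusted p 0.242 in limma.

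Mmp9 (ENSMUSG00000017737.2, chr2:164940780-164955850, plus strand) encodes gelatinase B, a protease that neutrophils store in gelatinase granules. It had 1.44, 2.56 and 3.10 FPKM in the controls and 0.794, 1.22 and 0.808 FPKM in the med23 Δli livers. All 3 med23 Δli livers lay below all 3 controls. With means of 2.37 ± 0.849 and 0.941 ± 0.243 FPKM (SD, n = 3 each), Mmp9 fell by 1.20 on the log2 scale (SE 0.31, 95% confidence interval −1.92 to −0.49, adjusted p = 0.0320 in limma), which makes it 2.30-fold higher in the controls. It was the only member called in either direction, and the call was not stable. Leaving out control replicate 2 gave an adjusted p of 0.0805, control replicate 3 gave 0.0585, and med23 Δli replicates 1, 2 and 3 gave 0.108, 0.0528 and 0.102 in turn, whereas leaving out control replicate 1 gave 0.0185 (limma). The fitted change stayed between −1.51 and −0.98 across these 6 fits. Mmp9 was also a qRT-PCR target of the study, in livers after chronic dosing with the same toxin rather than the acute injury described here. In that chronic model the paper reports more Mmp9 in med23 Δli livers than in controls, the opposite direction to the fall seen here. Why the directions differ was not tested. The primers of that qRT-PCR place the stretch it measured in the gene.
Mmp9 forward: accacagccaactatgaccaggat
Mmp9 reverse: aagagtactgcttgcccaggaaga
The forward primer matches coding bases of exon 6 (chr2:164950423-164950446, mm10) and the reverse primer matches coding bases of exon 7 (chr2:164950882-164950905), of 13 exons in the full transcript ENSMUST00000017881.2. Spliced, the product is 133 bases, and each primer matched transcripts of 1 gene.

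**Figure D1:**
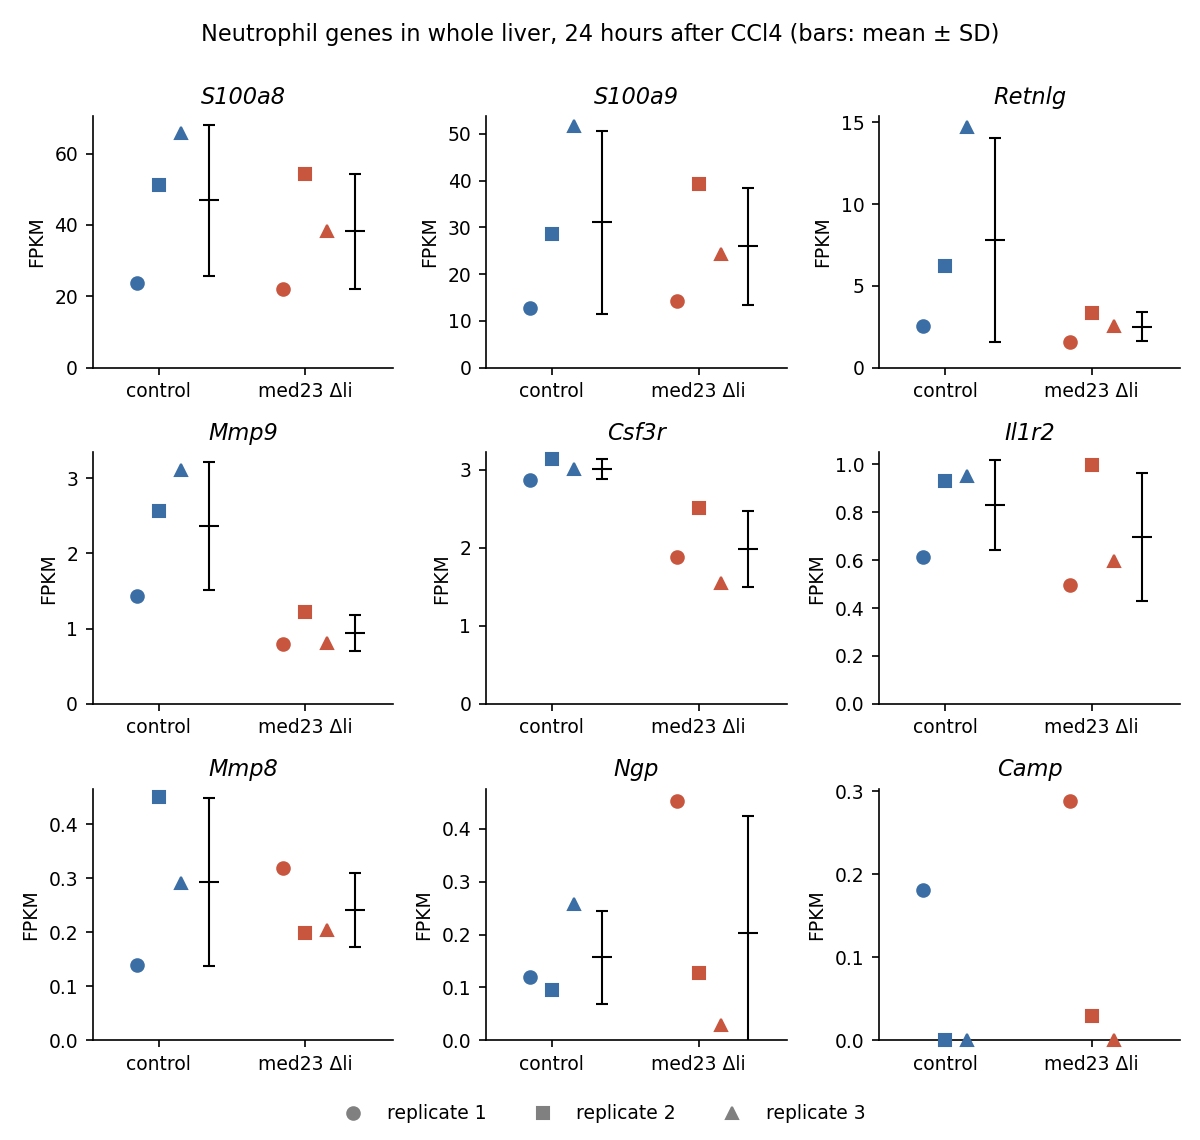
FPKM of each of the 9 genes in each library, controls in blue and livers labelled med23 Δli in red, with symbols for replicates 1 to 3 and bars for the mean ± SD (n = 3; none for Camp, which was listed at 0 in 3 libraries, and cut at 0 for Ngp). Mmp9 and Csf3r are the 2 genes whose med23 Δli values all lie below the controls, and the other 7 overlap.

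Of the 2 receptor genes, Csf3r (ENSMUSG00000028859.14, chr4:126024550-126044440, plus strand) encodes the receptor for G-CSF, the cytokine that drives neutrophil production. It was the steadiest member among the controls, with 2.88, 3.14 and 3.01 FPKM, and had 1.89, 2.52 and 1.55 FPKM in the med23 Δli livers. The groups did not overlap, and the means were 3.01 ± 0.132 and 1.98 ± 0.491 FPKM (SD, n = 3 each). The log2 fold change of −0.60 (SE 0.20) just missed the threshold with an adjusted p of 0.0663 in limma, and the p stayed above it, from 0.0517 to 0.185, under all 15 alternatives. Il1r2 (ENSMUSG00000026073.13, chr1:40074079-40125231, plus strand) encodes the decoy receptor that binds interleukin-1 without signalling. It had 0.613, 0.929 and 0.950 FPKM in the controls and 0.494, 0.998 and 0.597 FPKM in the med23 Δli livers. Its groups overlapped, and the log2 fold change was −0.25 (95% confidence interval −0.99 to 0.48, adjusted p = 0.590 in limma).

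The 3 remaining members, all genes for granule proteins on chromosome 9, averaged under 0.5 FPKM and stayed out of the test. Mmp8 (chr9:7558456-7568485), the neutrophil collagenase of specific granules, had 0.139, 0.450 and 0.290 FPKM in the controls and 0.319, 0.198 and 0.204 FPKM in the med23 Δli livers. Ngp (chr9:110419747-110423012), a cathelin-related granule protein, had 0.119, 0.0939 and 0.258 FPKM against 0.453, 0.127 and 0.0281 FPKM. Camp (chr9:109847379-109849617), the cathelicidin precursor, was at 0.181, 0 and 0 FPKM in the controls and at 0.289, 0.0295 and 0 FPKM in the med23 Δli livers. In all 3 the groups overlapped, and when the filter was dropped limma gave adjusted p-values of 0.820, 0.981 and 0.806. These levels leave little from which a difference could be seen. Ngp and Camp, 570129 bases apart, were both highest in med23 Δli replicate 1, the liver that had the least of 5 of the 6 tested members in its group.

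Of the 6 members tested, 1 was called down and 0 were called up, beside 3.45% of all tested genes called down and 4.45% called up. At an unadjusted p under 0.05, 3 of the 6 (Retnlg, Mmp9 and Csf3r) were lower and 0 were higher in limma, beside 17.1% lower and 20.5% higher among all genes. At an adjusted p under 0.05 with any size of change, 1 was lower and 0 were higher, beside 9.48% and 11.6%. Values of all 3 med23 Δli livers were below all 3 controls for 2 of the 6, beside 20.4% of all tested genes. Fitted changes were below 0 for 6 of 6, beside 47.8%, and their median was −0.44 where that of all tested genes was 0.024. Of the 6, 5 ranked the mice of each group in the same order, Csf3r being the exception, so they are not independent.

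**Figure D2:**
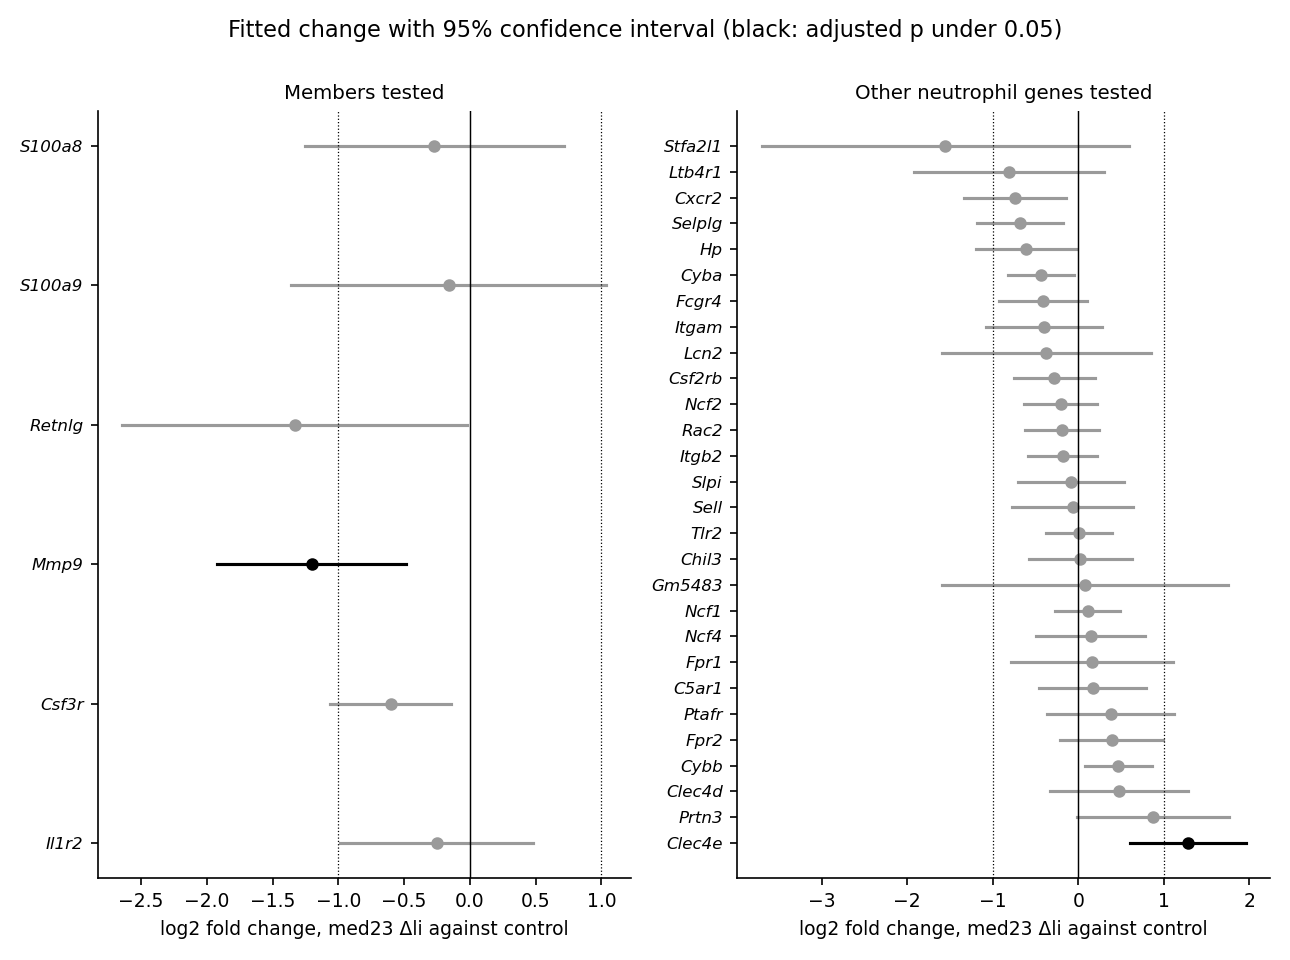
Fitted log2 fold change (med23 Δli against control, limma) with its 95% confidence interval, for the 6 tested members on the left and for the other neutrophil genes tested on the right; dotted lines mark 2-fold and black marks an adjusted p under 0.05. Mmp9 at −1.20 and Clec4e at 1.28 are the genes in black.

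From the lowest to the highest control, S100a8 spanned 2.75-fold, S100a9 4.03-fold and Retnlg 5.80-fold, whereas Csf3r spanned 1.09-fold. Among the med23 Δli livers the same genes spanned 2.47-fold, 2.75-fold, 2.12-fold and 1.62-fold. Control replicate 1 was the lowest control for 6 of the 6 tested members and control replicate 3 the highest for 5. Likewise, med23 Δli replicate 1 was the lowest of its group for 5 and replicate 2, the liver with adipocyte transcripts, the highest for 6. Without replicate 2, no member was called and Mmp9 had a log2 fold change of −1.39. Ordered by mean level over all libraries, the genes ran S100a8, S100a9, Retnlg, Csf3r, Mmp9, Il1r2, Mmp8, Ngp and Camp. Retnlg was above Csf3r in 4 of 6 livers and Csf3r above Mmp9 in 5 of 6, so these neighbours changed places between mice, as did Mmp8 with Ngp and Ngp with Camp in 1 liver each. All other neighbours kept their order in 6 of 6.

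Each of the other tested members was also set against S100a8 of the same liver, a comparison chosen after the values had been seen. Retnlg amounted to 10.6%, 12.1% and 22.4% of the S100a8 level in the controls and to 7.22%, 6.19% and 6.64% in the med23 Δli livers. Mmp9 amounted to 6.03%, 5.01% and 4.72% in the controls and to 3.62%, 2.25% and 2.10% in the med23 Δli livers. For both genes the groups were apart, at log2 differences of −1.06 and −0.93, and each gave p = 0.1 in the exact two-sided permutation test, the smallest that 3 against 3 allow (0.25 after adjustment over 5 comparisons). With a pseudocount of 1 in place of 0.1, Mmp9 overlapped between the groups and its difference was −0.50 (exact permutation p = 0.3). S100a9 stood at 53.8%, 55.9% and 78.7% of S100a8 in the controls and at 65.1%, 72.4% and 63.2% in the med23 Δli livers, overlapping. Csf3r (log2 difference −0.33) and Il1r2 (0.016) overlapped likewise, at exact permutation p-values of 0.6 and 0.9.

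**Figure D3:**
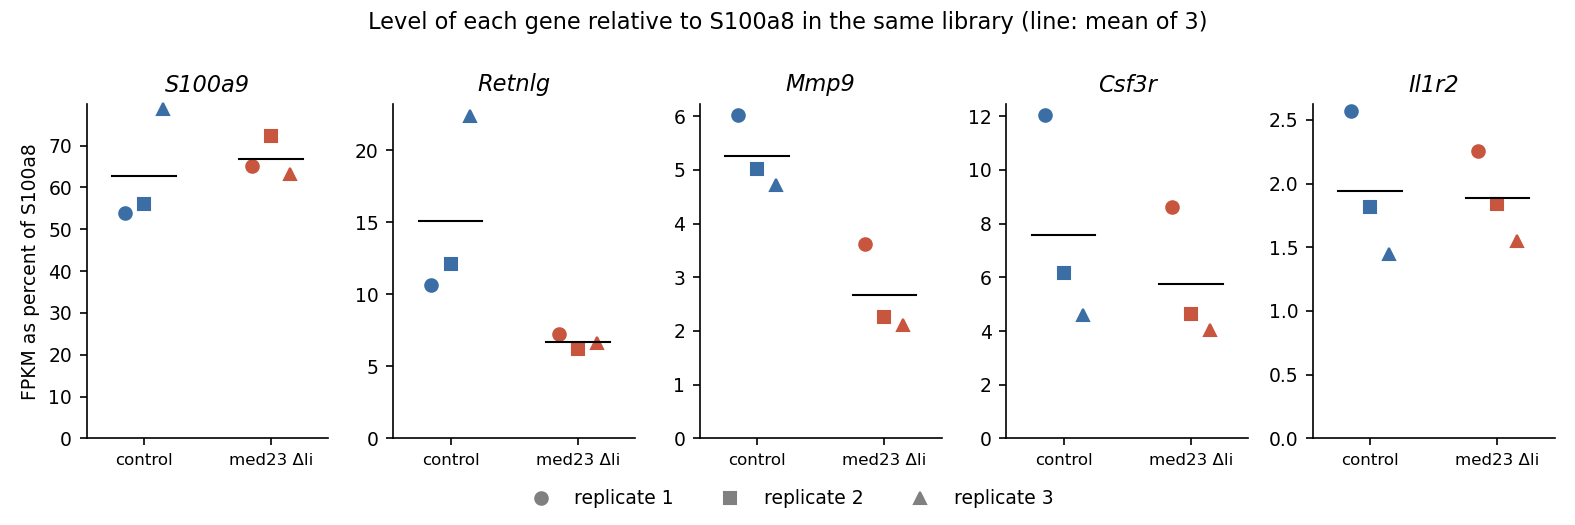
FPKM of 5 members as a percentage of the S100a8 FPKM in the same library, by group, with symbols for replicates 1 to 3 and a line for the mean of 3. Retnlg and Mmp9 are lower in all 3 med23 Δli livers than in all 3 controls, and S100a9, Csf3r and Il1r2 overlap.

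Other neutrophil genes were read from lists set by function. Azurophil granule genes were scarce: Mpo, Ctsg and Ms4a3 stayed at or below 0.208 FPKM in every library, Elane reached 0.999 FPKM in 1 control, and Prtn3, the 1 gene of the 5 that could be tested, did not pass (log2 fold change 0.88, adjusted p = 0.137 in limma). Of the 8 genes for specific and gelatinase granule proteins, 4 were tested and 0 were called, 1 (Hp) being lower at an unadjusted p under 0.05 in limma. Ltf, lactoferrin, had at most 0.0741 FPKM. Lcn2 had 477, 1018 and 1475 FPKM against 322, 969 and 1057 FPKM, and Hp had 7543, 10486 and 8779 FPKM against 4001, 6928 and 6991 FPKM. Injured hepatocytes are known to make both of these acute-phase proteins in quantity. Of the 6 NADPH oxidase genes, which carry the oxidative burst, 0 were called, and at an unadjusted p under 0.05 in limma 1 was higher (Cybb) and 1 lower (Cyba).

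Among the 15 tested genes for neutrophil receptors and adhesion molecules, 1 was called up and 0 down (2 were lower at an unadjusted p under 0.05 in limma), with a median log2 fold change of −0.067. The gene that rose was Clec4e, the C-type lectin Mincle that monocytes and macrophages also carry, at 0.532, 0.677 and 0.426 FPKM in the controls and 2.01, 1.39 and 1.08 FPKM in the med23 Δli livers. No value overlapped, and the log2 fold change was 1.28 (adjusted p = 0.0216 in limma). The call was lost without control replicate 1 (adjusted p = 0.0507), med23 Δli replicate 1 (0.0959) or med23 Δli replicate 2 (0.0722), in limma. Cxcr2, the receptor through which CXCL1 and CXCL2 draw neutrophils, had 1.14, 1.17 and 1.61 FPKM in the controls and 0.696, 0.961 and 0.594 FPKM in the med23 Δli livers. These values did not overlap either, yet the log2 fold change of −0.74 did not pass (adjusted p = 0.0779 in limma). Selplg, the selectin ligand PSGL-1, had no overlap either, at a log2 fold change of −0.68 (adjusted p = 0.0587 in limma). Formyl peptide receptor Fpr1 (0.16), C5a receptor C5ar1 (0.17) and integrin alpha M Itgam (−0.40) overlapped between the groups. In the stefin A cluster of protease inhibitors, Stfa2l1 had 0.225, 0.430 and 2.71 FPKM against 0, 0.598 and 0.171 FPKM, and 3 of the 8 genes were at 0 in every library. Near-identical copies in this cluster share reads, so their values are uncertain.

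The partners of the members came next. Csf3, the ligand of Csf3r, was near 0 in every library, at most 0.159 FPKM. For the interleukin-1 axis around Il1r2, the receptor antagonist Il1rn had 12.2, 4.73 and 12.9 FPKM in the controls and 22.3, 23.0 and 18.9 FPKM in the med23 Δli livers. Il1rn rose by 1.22 on the log2 scale without overlap (adjusted p = 0.0446 in limma), and the adjusted p, from 0.0188 to 0.121 in limma, missed the threshold in 8 of 15 alternatives. Among them were the fits without control replicate 1 (0.0529) and without med23 Δli replicate 1 (0.121), 2 (0.121) or 3 (0.0998), and without control replicate 2 the change was 0.76, less than 2-fold. Il1b (0.63, adjusted p = 0.116), Il1r1 (0.45, 0.130) and Il1rap (0.0056, 0.985) did not pass in limma, although Il1b did without med23 Δli replicate 3 (0.90, adjusted p = 0.0483). Timp3, an inhibitor of metalloproteinases, fell by 0.76 on the log2 scale (5.79, 6.48 and 6.83 FPKM against 4.13, 4.02 and 3.11 FPKM; adjusted p = 0.0175 in limma), less than 2-fold. Leaving out med23 Δli replicate 1, 2 or 3 ended this, with adjusted p-values of 0.0535, 0.0517 and 0.0604 in limma. Timp1, which binds the MMP9 protein, had a log2 fold change of −0.13 with overlap.

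Of the chemokines tested, Cxcl12 varied little, from 48.3 to 65.1 FPKM over the 6 livers (log2 fold change −0.15, adjusted p = 0.470 in limma), whereas Cxcl1 and Cxcl2 varied widely. Cxcl1 had 40.9, 11.2 and 6.96 FPKM in the controls and 25.7, 37.2 and 56.6 FPKM in the med23 Δli livers. The control with the most Cxcl1, replicate 1, was the control with the least S100a8. With it, the log2 fold change was 1.35 (adjusted p = 0.138), and without it 2.09 (adjusted p = 0.0183, both in limma). Cxcl2 had 6.93, 3.17 and 29.7 FPKM against 4.09, 4.90 and 1.08 FPKM, where control replicate 3 stood far above the rest, and it did not pass (log2 fold change −1.60, adjusted p = 0.192 in limma). Of the 5 genes tested in this list, 0 were called, and 1 was lower at an adjusted p under 0.05 in limma, as it was at an unadjusted one: Lta4h, the enzyme that makes leukotriene B4 (−0.60, adjusted p = 0.0317). It lost this without control replicate 1 (0.0575) or 2 (0.0503), or med23 Δli replicate 1 (0.103), 2 (0.108) or 3 (0.0915), in limma. On the endothelial side, Pecam1, through which leukocytes cross the vessel wall, was lower in the med23 Δli livers (−0.75, adjusted p = 0.0102 in limma), and P-selectin Selp (−0.75, 0.146), E-selectin Sele (0.60, 0.388) and Icam1 (−0.35, 0.253) did not pass.

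Markers of other leukocytes were read beside these values. The 12 monocyte and macrophage genes summed to 293 to 371 FPKM in the controls and 305 to 340 FPKM in the med23 Δli livers, and of the 11 tested 0 were called (1 higher and 2 lower at an unadjusted p under 0.05 in limma). Their median log2 fold change was −0.17. Ptprc, the gene for the pan-leukocyte antigen CD45, did not pass (log2 fold change 0.070, adjusted p = 0.814 in limma). The 6 pan-leukocyte genes together had 65.6 to 67.5 FPKM in the controls and 55.2 to 57.2 FPKM in the med23 Δli livers. Lcp1, at 23.2 to 30.9 FPKM, was the largest part of this sum. Of the 6, 0 were called, 4 had fitted changes below 0, and Cd53 had 0.26 (adjusted p = 0.335 in limma). Only 1 lay below all controls in all 3 med23 Δli livers, beside 20.4% of all tested genes. This was Coro1a, lower at −0.58 (adjusted p = 0.0478 in limma). It was lost in 7 of 15 alternatives, among them the fits without control replicate 2 (0.0814) and without med23 Δli replicate 1 (0.125), 2 (0.109) or 3 (0.146). The part of these cells in the lower Mmp9 level was not tested. Platelet genes summed to 5.38 to 7.86 FPKM against 2.20 to 5.29 FPKM. Of the 2 tested, Itga2b was lower without overlap (log2 fold change −0.91, adjusted p = 0.0321 in limma), which was lost in 7 of 15 alternatives, among them the fits without control replicate 2 (0.0758) or 3 (0.0559) and without med23 Δli replicate 1 (0.0914), 2 (0.103) or 3 (0.0893). The part of platelets was not tested either. Erythroid genes, the other markers of blood, summed to 84.9 to 229 FPKM in the controls and 124 to 209 FPKM in the med23 Δli livers, with overlap, and Alas2, the heme enzyme of red cells, did not pass (log2 fold change −0.40, adjusted p = 0.387 in limma). Of the 6 tested, 2 were higher at an unadjusted p under 0.05 in limma, Hbb-b1 (6.69, adjusted p = 0.0510) and Hba-a1 (4.77, adjusted p = 0.0410), while Hbb-bs had −2.06 with overlap. The globin genes are near-identical copies whose reads can be split between them, so their single values are uncertain. The Hba-a1 call was lost in 10 of 15 alternatives, among them the fits without control replicate 1 (0.0946), 2 (0.0892) or 3 (0.0606) and without med23 Δli replicate 1 (0.112) or 2 (0.121). All B cell, T cell, NK cell, eosinophil, basophil and mast cell genes averaged under the filter. Hepatocyte genes, with Alb among them, summed to 25971 to 36185 FPKM in the controls and 22841 to 29247 FPKM in the med23 Δli livers. Of the 6 tested, 2 were lower at an unadjusted p under 0.05 in limma, and 1 of these, Serpina1a, passed the adjusted threshold without overlap (log2 fold change −0.70, adjusted p = 0.0305 in limma), which was lost without control replicate 1 (0.0838) or 2 (0.0611) or med23 Δli replicate 1 (0.111) or 3 (0.0987). Their part in the lower Mmp9 level was not tested.

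The families of the members, put together after the values had been seen, were compared last. Of 23 matrix metalloproteinase genes, 9 were tested, 3 were called down and 0 up, beside the 3.45% and 4.45% of all genes, and Mmp9 showed the smallest change of the 3. At an unadjusted p under 0.05 in limma 4 were lower and 0 higher, the fourth being Mmp19 (log2 fold change −0.56, adjusted p = 0.0298), which was lower by less than 2-fold and lost this in 6 of 15 alternatives. Among these were the fits without control replicate 1 (0.0606) or 2 (0.0508) and without med23 Δli replicate 1 (0.105), 2 (0.109) or 3 (0.0797). Mmp14, a membrane-bound enzyme of stromal and other cells, had 36.9, 47.1 and 43.0 FPKM in the controls and 12.9, 14.2 and 13.7 FPKM in the med23 Δli livers (log2 fold change −1.62, adjusted p = 0.00108 in limma). Mmp7, matrilysin, an epithelial enzyme, had 1.56, 1.22 and 2.01 FPKM against 0, 0.126 and 0.226 FPKM (−3.10, adjusted p = 0.00629 in limma). Neither lost its call in any alternative in which it was tested. Macrophage elastase Mmp12 and collagenase Mmp13 overlapped between the groups. Of the 10 S100 genes tested in the cluster that holds S100a8 and S100a9, 1 was called up and 0 down. At an unadjusted p under 0.05 in limma, 3 were higher and 1 was lower, beside 20.5% and 17.1% of all genes. The called gene was S100a11, at 81.8, 68.3 and 86.7 FPKM in the controls and 237, 200 and 180 FPKM in the med23 Δli livers (log2 fold change 1.38, adjusted p = 0.00275 in limma), while its 2 neutrophil neighbours did not pass.

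**Figure D4:**
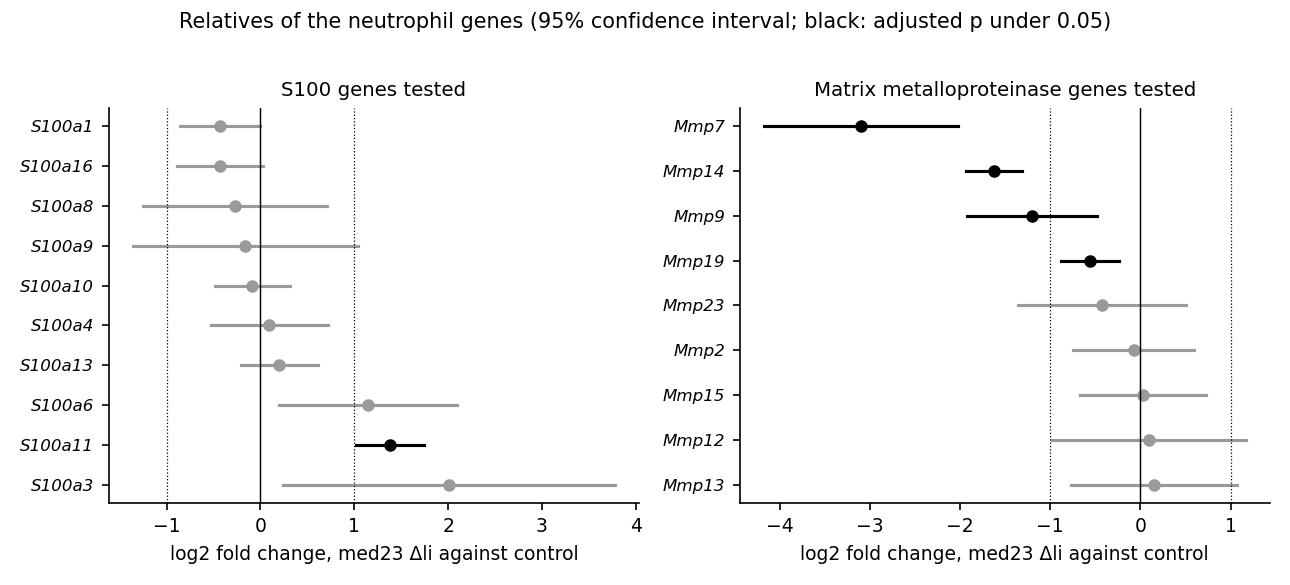
Fitted log2 fold change (med23 Δli against control, limma) with its 95% confidence interval for the tested S100 genes of the chromosome 3 cluster (left) and the tested matrix metalloproteinase genes (right); dotted lines mark 2-fold and black marks an adjusted p under 0.05. S100a8 and S100a9 lie in grey near 0 while S100a11 is at 1.38, and Mmp7, Mmp14 and Mmp9 lie below −1.

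The profile of the tested members over the 6 livers, averaged after centring each on its own mean, ran −0.38, 0.44 and 0.89 in the controls and −0.76, 0.19 and −0.39 in the med23 Δli livers on the log2 scale. S100a8 was the member nearest to it (Euclidean distance 0.592) and Retnlg the farthest (1.24), where the median over all tested genes was 1.55. The 5 other genes nearest to it were Itih4 (0.409), Colec12 (0.425), Selp (0.453), Tmprss2 (0.465) and Mdfi (0.488). Itih4, an acute-phase gene of the hepatocyte, had 1244, 1639 and 2150 FPKM in the controls and 723, 1316 and 943 FPKM in the med23 Δli livers. All 5 lay nearer to the profile than any member did, and 2045 non-members lay nearer than Retnlg, so a profile over 6 livers does not single out neutrophil genes.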

How the data were processed

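Whole-liver RNA of 6 mice was used, 3 in each group, grouped by the sample labels; all 6 columns of values per library were mapped. The authors prepared TruSeq libraries, trimmed paired reads and mapped them with TopHat (UCSC mm10 assembly), and Cuffdiff gave the values; versions, annotation and options are not given in the sources used here. The deposited table holds FPKM per library. Its columns of group means, log2 fold changes, test statistics, p-values, q-values and significance calls were not used. The members and gene lists were chosen with earlier results of these data known.

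Genes averaging 0.5 FPKM or more were compared as log2(FPKM + 0.1) with limma 3.58.1 (lmFit, eBayes with trend) in R 4.3.3. No replicate block was used. Nothing says whether mice shared a litter or cage. The fit was tested on simulated data: of 11956 genes, 82 of 100 changed by 1.5 on the log2 scale, 96 of 100 changed by 3 and 2 of 11756 unchanged genes were called. The simulated errors were normal and independent, with the spreads shuffled among the genes. These rates are therefore not the chance of calling a given member. Single values had an exact two-sided permutation test. Members in the table are all named; other genes are named if they passed the test or bear on a member by role, and the 5 nearest profiles by distance. Family members and near-zero markers named beyond this were chosen after their values were seen. For the granule list, 1 gene was left out of the list and its counts and is not reported here.

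The 15 alternatives changed the pseudocount to 1 or 0.01, dropped the filter or set it at 1 FPKM, centred libraries on their medians or quantile-normalized them, ran eBayes robustly or with no trend, took replicate number as a block, or left out each library in turn; an adjusted p with any size of change was also counted. Positions are from GENCODE M 21 on mm10 and promoters from RefSeq. Other calculations ran in Python 3.11.15 with pandas 2.3.3, scipy 1.17.1, numpy 2.4.6 and, for figures, matplotlib 3.10.9.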

Additional observations from a re-analysis of the deposited data

How the results depend on the processing

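Of the tested members, Csf3r and Il1r2 kept their direction and stayed above the threshold in every alternative in which they were tested (Il1r2 was removed by the filter at 1 FPKM). The number of members called down was 1 as reported, 0 with a pseudocount of 1 (Mmp9 −0.77, less than 2-fold), 0 with no filter (Mmp9 adjusted p = 0.0652 in limma, with 17752 genes tested), and 0 to 2 with each library left out. The number called up was 0 throughout. S100a8 reversed without control replicate 3 (0.033) and without med23 Δli replicate 1 (0.082), and was lowest without control replicate 1 (−0.70). S100a9 reversed in the same fits (0.31 and 0.21) and reached −0.69 at the lowest; the cause was not tested. Med23 reversed without control replicate 3 (0.017) and was lowest without control replicate 2 (−0.22). Leaving out single libraries gave Retnlg −1.96 to −0.71. Over all genes, 319 to 730 were called up and 268 to 529 down with each library left out, against 532 and 412 with all 6. With a pseudocount of 1, 371 were called up and 229 down, Clec4e at 0.68 being under 2-fold, and at an adjusted p under 0.05 with any size of change 1384 were higher and 1133 lower. No setting moved the median of all genes by more than 0.1. Within livers, the difference of Il1r2 from S100a8 was −0.018 with a pseudocount of 0.01. Both groups carry replicate numbers 1 to 3, and no pairing by number was seen over all genes. The deviations of same-numbered libraries from their group means correlated at −0.0222, −0.0459 and −0.124 over 11956 genes, and 0 of 6 libraries correlated best with their own number. These correlations cannot settle whether mice of equal number shared a litter, cage or handling. With the number as a block, 477 genes were called up and 353 down, 1 member was called down, and Il1rn, Timp3, Lta4h, Coro1a, Itga2b and Mmp19 had adjusted p-values of 0.0598, 0.0564, 0.0655, 0.0739, 0.0681 and 0.0708 in limma. The block lowered the SE of S100a8 from 0.43 to 0.20, of S100a9 from 0.52 to 0.30 and of Retnlg from 0.57 to 0.37. It raised that of Csf3r from 0.20 to 0.22. Retnlg then had an adjusted p of 0.0626 and Csf3r one of 0.115 in limma. Without read counts, how far depth limits the low values of Mmp8, Ngp and Camp is unknown.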

Other observations

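Cebpe, the factor that turns on the specific granule genes in maturing granulocytes, was under the filter and not tested, with 0.0242, 0 and 0 FPKM in the controls and 1.16, 0.0807 and 0.848 FPKM in the med23 Δli livers. Prtn3, the azurophil protease proteinase 3, had 0.773, 0.882 and 1.48 FPKM against 1.51, 1.36 and 3.47 FPKM, overlapping and not past the test. The order of the libraries differed between these genes, since Cebpe was highest in replicate 1 and Prtn3 in replicate 3. Cebpb, a factor of the acute-phase response and of emergency granulopoiesis, had 51.5, 79.8 and 81.8 FPKM against 94.0, 127 and 130 FPKM, a log2 fold change of 0.73 with an adjusted p of 0.0479 in limma that was lost in 9 of 15 alternatives, among them the fits without control replicate 1 (0.0950) or 2 (0.0592) and without med23 Δli replicate 1 (0.0680), 2 (0.147) or 3 (0.145).

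Among the relatives of Retnlg, Retn, the adipocyte hormone resistin, had 3.09 FPKM in med23 Δli replicate 2, the library with adipocyte transcripts, and at most 0.0299 FPKM elsewhere. Ly6c2, a relative of Ly6g carried by monocytes, had 0.786, 0.642 and 1.14 FPKM in the controls and 2.36, 0.966 and 1.58 FPKM in the med23 Δli livers, with overlap (log2 fold change 0.81, adjusted p = 0.128 in limma). Of the 6 Ly6 genes tested, 0 were called and 1 was higher at an unadjusted p under 0.05 in limma. These genes were chosen after their values had been seen.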
